A study of Homo sapiens with 4 samples.

Results

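The cholesterol and fatty acid synthesis genes of MDA-LM2 cells were followed after siRNA against the transcription factor SOX4. The members were chosen by name, as enzymes of the cholesterol pathway, the proteins that control the SREBP transcription factors, and enzymes of fatty acid synthesis, 32 genes in all. Of these, 31 had a probe named by the platform annotation, and 30 had a probe that was detected on at least 2 of the 4 arrays, out of 11389 genes measured in that way. The sterol arm held 19 enzymes, of which 18 were measured. All 5 SREBP controllers and all 7 genes of the fatty acid arm were measured, and STARD4, a carrier of sterols between membranes, was not detected on any array. MDA-LM2 is a lung-metastatic line that was selected in mice from MDA-MB-231, an established human breast cancer line. Cells transfected with siSOX4 (2 samples) were compared with cells transfected with siControl (2 samples), with RNA taken 48 h after transfection in both groups. All cells were MDA-LM2, grown in medium with serum and given the same lipid transfection reagent. The series' design speaks of 2 siRNAs against SOX4, but the labels do not say whether sample numbers 1 and 2 stand for them, and nothing says that samples of a group were separate cultures. The p-values thus describe the scatter among these 4 arrays alone, and that scatter may be only technical. In RNA from bulk cells, fewer cells with a transcript and less of it per cell cannot be told apart.

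Cholesterol is built from acetyl-CoA through mevalonate, farnesyl pyrophosphate, squalene and lanosterol. The genes of this path are switched on together by SREBP-2, while SREBP-1c drives the genes of fatty acid synthesis and desaturation. Both are made as inactive proteins of the endoplasmic reticulum. When membranes are poor in sterol, SCAP escorts them to the Golgi, where they are cut to release the active factor, and when sterol is plentiful, INSIG proteins hold SCAP back. The genes for INSIG1 and SREBP-2 are themselves SREBP targets, and the SREBP-1c promoter of SREBF1 also responds to the oxysterol receptor LXR.

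Of 47323 probes, siSOX4 arrays 1 and 2 detected 19655 and 20292, and siControl arrays 1 and 2 detected 18609 and 19346. The number of arrays, 2 a group, limits the precision of every value. The targeted gene SOX4 had signals of 206 and 193 in the siSOX4 samples, against 253 and 239 in the siControl samples. Its groups did not overlap, and its log2 difference of -0.35 ± 0.19 (SE) did not pass the test (limma, adjusted p = 0.487). The groups are therefore named by their labels. Of 8 markers of MDA-MB-231-derived cells, 8 were detected on every array, and of 5 genes expected to be low there, 4 were detected on fewer than 2 arrays and GATA3 on 2. Of the immune markers, PTPRC and CD3E were not detected, CD68 and CD14 were detected on all 4 arrays, CD79A on 3 and MS4A1 on 2. CD68 was bright, with signals of 1694 and 2199 in siSOX4 samples 1 and 2, against 2402 and 2063 in siControl samples 1 and 2. Of the named genes with a probe, 2 of 6 immune markers, 2 of 8 endothelial and fibroblast markers and 3 of 8 adipocyte and liver markers were detected on all arrays.

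The sterol enzymes mostly had more signal in the siSOX4 group, but that excess came chiefly from siSOX4 sample 1. The controllers and the fatty acid genes were split in direction. Of the 30 measured members, 22 had a higher mean in siSOX4 cells and 8 a lower one, where 48% of all genes were higher. The sterol arm had 16 of 18 higher, the controllers 2 of 5 and the fatty acid arm 4 of 7. No member passed an adjusted p of 0.05 in limma, where 0% of all genes did, and the lowest adjusted p among the members was 0.223, for ACAT2. At an unadjusted p under 0.05, ACAT2, MSMO1 and NSDHL were higher and INSIG1 was lower, that is 3 of 30 higher against 7.44% of all genes and 1 of 30 lower against 7.39%. Among the 13 other settings tried, member counts past adjusted p differed from 0 only where a siSOX4 array was left out, with 5 of 30 members when sample 1 was left out, against 11.9% of all genes, and 17 of 30 when sample 2 was, against 24.7%. Both siSOX4 arrays lay above both siControl arrays for 10 of 30 members, against 22.7% of all genes, and below both for 3 of 30, against 25.1%. One of the 10, SREBF2, was kept only through the siSOX4 arrays. Of the 29 members detected on all arrays, 21 were higher, 9 lay above both controls and 3 below. Of the 9782 genes with a probe detected on all arrays, 22.6% lay above both controls and 26.5% below.

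**Figure D1:**
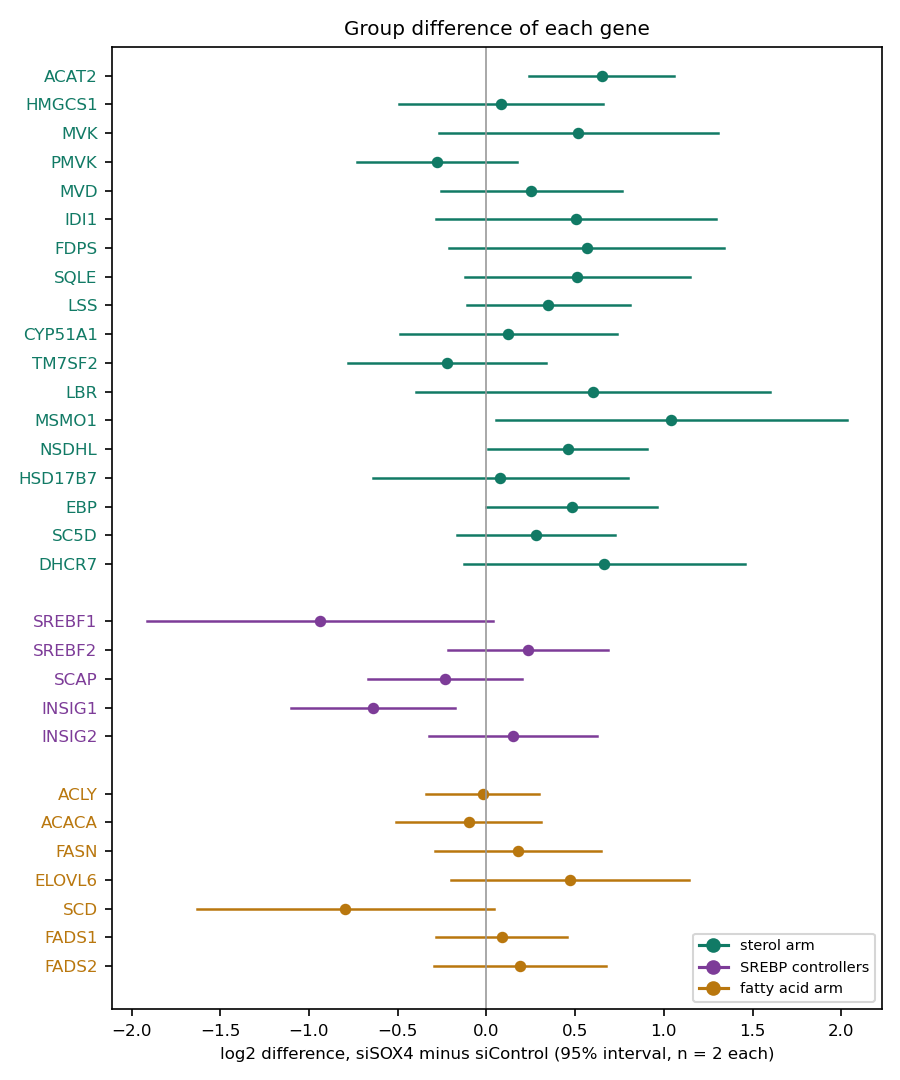
Log2 difference, siSOX4 minus siControl, of the 30 measured members, grouped by arm; points are the fitted differences and bars their 95% intervals in limma (2 arrays a group). MSMO1 has the highest difference at 1.04 and SREBF1 the lowest at -0.94, with most sterol genes to the right of 0 and most intervals crossing it.

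The sterol arm had a median log2 difference of 0.47 (siSOX4 minus siControl), against -0.016 over all genes tested. Against the mean of the siControl samples, siSOX4 sample 1 had a sterol median of 0.62 and siSOX4 sample 2 one of 0.077, with -0.037 and 0.037 in siControl samples 1 and 2. Sample 1 therefore carried most of the excess. The enzymes from acetyl-CoA to squalene (7 measured) had a median difference of 0.51, with 0.78 for sample 1 and -0.033 for sample 2. The enzymes from squalene to cholesterol (11 measured) had a median of 0.46, with 0.59 for sample 1 and 0.14 for sample 2.

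Of the early enzymes, ACAT2, which joins acetyl-CoA units to acetoacetyl-CoA in the cytosol, differed alike in both siSOX4 samples. Its signals were 1649 and 1444 in siSOX4 samples 1 and 2, against 950 and 1147 in siControl samples 1 and 2. Both siSOX4 arrays were above both controls, and the log2 difference was 0.65 ± 0.18 (SE, limma, unadjusted p = 0.0065). HMGCS1, the HMG-CoA synthase, had normalized log2 values of 9.33 and 8.59 in siSOX4 samples, against 8.85 and 8.91 in siControl samples. One siSOX4 array was thus above both controls and the other below both, for a group difference of 0.084 ± 0.25 (0.035 with the authors' processed values). MVK, the mevalonate kinase, had 6.67 and 5.57 in siSOX4 samples, against 5.63 and 5.57 in siControl samples. Only sample 1 stood above the controls for MVK, and its difference of 0.52 ± 0.34 rested on that array and was 0.30 without background correction. PMVK, the kinase of the next step, was the one early enzyme with less signal, at 7.25 and 7.50 in siSOX4 samples against 7.68 and 7.63 in siControl samples. Its groups did not overlap, with a difference of -0.28 ± 0.20. MVD, which makes isopentenyl pyrophosphate, had 6.73 and 6.34 in siSOX4 samples, against 6.29 and 6.27 in siControl samples, and its groups did not overlap either.

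IDI1, which isomerises isopentenyl pyrophosphate, had 9.55 and 8.37 in siSOX4 samples, against 8.41 and 8.50 in siControl samples. FDPS, which makes farnesyl pyrophosphate, had 8.87 and 7.88 in siSOX4 samples, against 7.54 and 8.08 in siControl samples. For both genes sample 1 alone was high and sample 2 was within or below the controls, and the group differences were 0.51 ± 0.34 for IDI1 and 0.56 ± 0.33 for FDPS. FDPS has processed pseudogenes, so its probe is uncertain as to the copy it reads. FDFT1, the squalene synthase, had no named probe here. In the authors' deposited table, FDFT1 had 2 ratios of siControl over siSOX4, 0.703 and 0.758, which are 1.42-fold and 1.32-fold higher after siSOX4, with no values by sample.

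MSMO1, the oxidase that removes the methyl groups at carbon C4 of the sterol nucleus, had the highest difference among the members. Its signals were 1836 and 676 in siSOX4 samples 1 and 2, against 582 and 604 in siControl samples 1 and 2. Both siSOX4 arrays were above both controls, but sample 1 by far more than sample 2. The log2 difference was 1.04 ± 0.43, a 2.06-fold higher mean (limma, unadjusted p = 0.0412, adjusted p = 0.367). Sample 1 was 1.83 above the control mean on the log2 scale and sample 2 was 0.25 above it. The mean of its kept probes gave a smaller difference, 0.63. Its other kept probes were below the control mean in sample 2, at -0.50 and -0.39.

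The promoter of MSMO1 is shown because this gene had the largest difference of the sterol arm and its upstream sequence is dense in CCAAT boxes, the binding motif of NF-Y, a factor that acts beside SREBP at sterol promoters. The sequence is the 250 bases before the listed start in RefSeq (GRCh38, chr4:165327419-165327668, plus strand), with CCAAT or its reverse complement ATTGG in capitals.
MSMO1: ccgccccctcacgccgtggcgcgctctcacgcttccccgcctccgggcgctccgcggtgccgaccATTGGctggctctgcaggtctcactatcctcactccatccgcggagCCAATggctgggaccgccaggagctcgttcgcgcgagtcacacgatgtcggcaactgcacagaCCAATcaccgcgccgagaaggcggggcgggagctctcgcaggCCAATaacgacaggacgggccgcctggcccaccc
Promoter windows of this length were held for 28 of the 32 members and not for SQLE, FDFT1, ACAT2 and FASN. CCAAT, on either strand, was in 12 of 16 sterol promoters (75%), 2 of 5 controllers and 2 of 6 fatty acid promoters, against 33% of the 27305 promoters in the table. The GC box GGGCGG was in 14 of 16 sterol promoters (87.5%), 5 of 5 controllers and 5 of 6 fatty acid promoters, against 42.3% of all. The sterol regulatory element was searched as the string TCACNCCAC, where N is any base. It was in 1 of the 28 windows, that of SREBF2, against 0.875% of all. Elements that differ from this string were not counted. The E-box CACGTG was in 3 of 28, SC5D, SCAP and INSIG1, against 6.49% of all. The SOX-type motif AACAAAG was in 0 of 28 windows, against 4.54% of all, and the shorter AACAAT was in 2, PMVK and LBR, against 9.19%. These matches of letters on both strands were counted in the window of the first listed start, and 8 members had other starts listed.

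Of the later enzymes, SQLE, the squalene epoxidase and a rate-limiting step, had normalized log2 values of 9.20 and 8.46 in siSOX4 samples, against 8.10 and 8.53 in siControl samples. Sample 1 was above both controls and sample 2 between them, for a difference of 0.51 ± 0.27. LSS, which closes squalene epoxide into lanosterol, had 9.17 and 8.74 in siSOX4 samples, against 8.58 and 8.64 in siControl samples, with no overlap. CYP51A1, the lanosterol demethylase, had 7.79 and 7.06 in siSOX4 samples, against 7.35 and 7.24 in siControl samples, so its siSOX4 arrays lay on opposite sides of the controls. The sterol reductases TM7SF2 and LBR act on the same double bond. TM7SF2 was dim and overlapped between the groups, and its difference of -0.22 ± 0.24 was the other negative one of the arm and was -0.13 with the authors' processed values. LBR, which is also a nuclear lamina receptor, had 7.84 and 6.52 in siSOX4 samples, against 6.96 and 6.20 in siControl samples. The LBR groups overlapped, with a difference of 0.60 ± 0.43 that was 0.24 with the mean of its kept probes.

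NSDHL, the dehydrogenase that works with MSMO1, had 9.26 and 8.89 in siSOX4 samples, against 8.52 and 8.71 in siControl samples. Both siSOX4 arrays were higher, by 0.46 ± 0.19 (limma, unadjusted p = 0.0467, adjusted p = 0.377). EBP, the sterol isomerase, had 9.46 and 9.24 in siSOX4 samples, against 8.63 and 9.11 in siControl samples, again without overlap. SC5D, the desaturase of the next step, had 8.79 and 8.59 in siSOX4 samples, against 8.25 and 8.57 in siControl samples, with sample 2 barely above siControl sample 2. DHCR7, which reduces the last intermediate to cholesterol, had 8.73 and 7.58 in siSOX4 samples, against 7.48 and 7.50 in siControl samples. Its difference of 0.67 ± 0.34 came mostly from sample 1. HSD17B7, the ketosteroid reductase of the C4 demethylation complex, ran the other way from its neighbours. Its signals were 371 and 737 in siSOX4 samples 1 and 2, against 565 and 479 in siControl samples 1 and 2. Sample 1 was below both controls and sample 2 above both, and the group difference was 0.079 ± 0.31 (0.030 with the authors' processed values). HSD17B7 has close pseudogene copies, so its probe is uncertain as to the transcript.

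**Figure D2:**
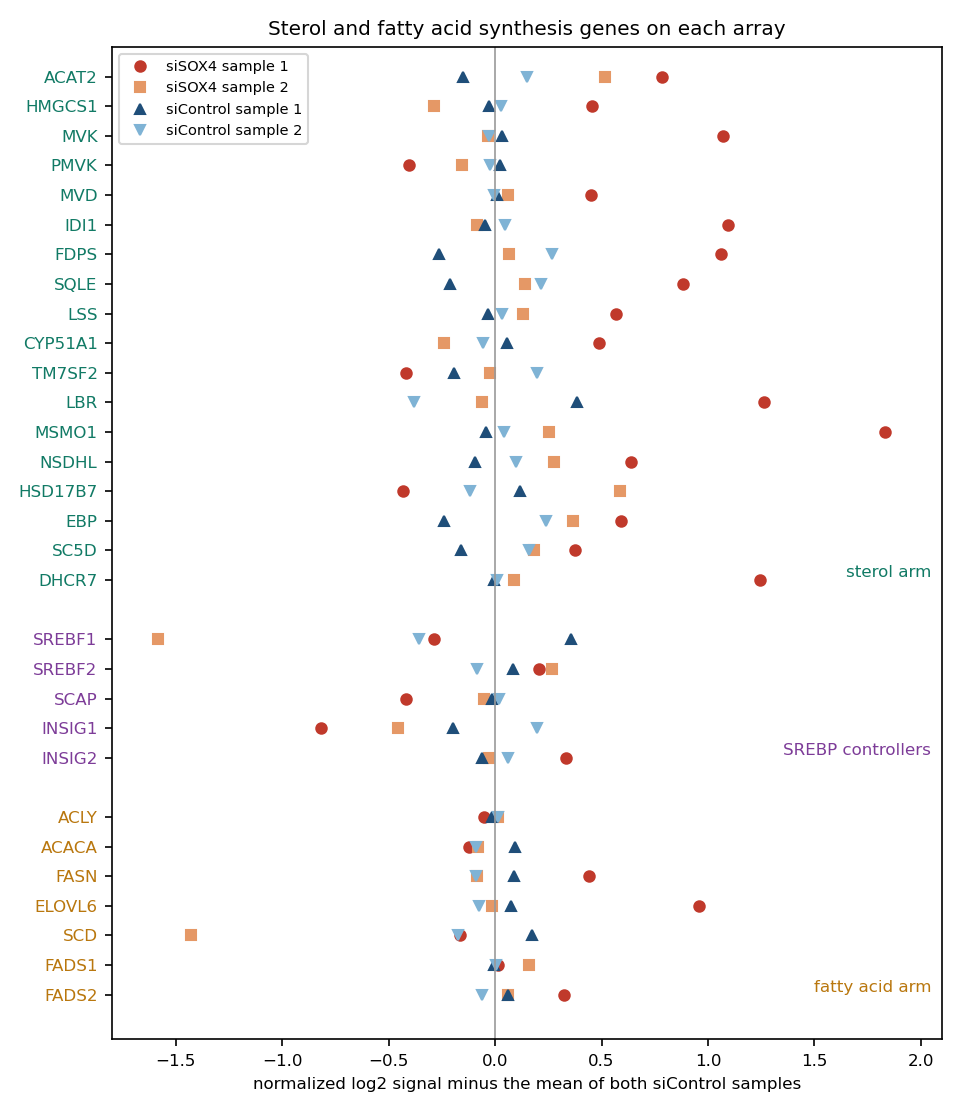
Normalized log2 signal minus the siControl mean (x axis) of each measured member (rows, grouped by arm) on each of the 4 arrays, circles and squares for siSOX4 samples and triangles for siControl samples. MSMO1 reaches 1.83 in siSOX4 sample 1 and 0.25 in sample 2, while SREBF1 reaches -0.29 in sample 1 and -1.58 in sample 2.

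The spread between the siSOX4 samples was wide in the sterol arm. Sample 1 was above sample 2 for 15 of 18 sterol genes, against 47.5% of all genes. The median absolute log2 gap was 0.74 between the siSOX4 samples and 0.15 between the siControl samples, where all genes had 0.27 and 0.15. More than 2-fold lay between the siSOX4 samples for 6 of 18 sterol genes (33.3%) and 8 of 30 members, against 3.20% of all genes, and for 0 of 30 members between the siControl samples. Summed over the 18 measured sterol genes, the raw signal was 10457 and 7617 on siSOX4 arrays 1 and 2, against 6578 and 7119 on siControl arrays 1 and 2. Another list moved with this split. The 30 listed mitosis genes had medians of 1.03 and 0.17 in siSOX4 samples 1 and 2, against 0.067 and -0.067 in the siControl samples. All 30 were above the control mean in sample 1 and 24 in sample 2, against 5376 and 5697 of all 11389 genes. Their summed signals were 54718 and 34029 on siSOX4 arrays, against 31558 and 29023 on siControl arrays, and their part in the sterol result was not tested. Of the 8 endothelial and fibroblast markers, 3 were measured: PECAM1, PDGFRB and LUM. Their medians were 0.91 and 0.35 in siSOX4 samples 1 and 2, against -0.042 and 0.042 in the siControl samples. Their summed signals were 363 and 299 on siSOX4 arrays, against 276 and 269 on siControl arrays. Both siSOX4 medians are the values of PECAM1 alone. PECAM1 had signals of 140 and 109 in siSOX4 samples, against 97.6 and 104 in siControl samples, a log2 difference of 0.63 ± 0.25 (limma, unadjusted p = 0.0371, adjusted p = 0.355). PDGFRB had signals of 132 and 97.9 in siSOX4 samples, against 72.7 and 72.7 in siControl samples. It was kept only through the siSOX4 arrays, so the filter fixes its direction. LUM, which was detected on all arrays, went the other way with overlap, at a log2 difference of -0.17 ± 0.21. Its signals were 91.4 and 92.0 in siSOX4 samples, against 105 and 92.8 in siControl samples. Of the markers of this list that were not measured, COL3A1 was detected on 1 array and CDH5, VWF, KDR and DCN on 0.

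Each siSOX4 array was also fitted alone against both siControl arrays in limma, where the lone array is assumed to vary like the controls. The 2 fits share their controls, so they are not independent. With sample 1 alone, 12 of 18 sterol genes were higher at an adjusted p under 0.05, against 11.5% of all genes, and HSD17B7 was lower, against 13.2%. The higher genes were ACAT2, HMGCS1, MVK, IDI1, FDPS, SQLE, LSS, LBR, MSMO1, NSDHL, EBP and DHCR7, with log2 differences of 0.46 for HMGCS1 to 1.83 for MSMO1, which was 3.56-fold higher (adjusted p = 1.38e-18). DHCR7 was 1.24 higher, LBR 1.26, IDI1 1.10, MVK 1.07 and FDPS 1.06. With sample 2 alone, 2 of 18 were higher, against 5.97% of all genes, and 0 were lower, against 5.96%. These were ACAT2, higher by 0.52 (adjusted p = 0.00821), and HSD17B7, higher by 0.59 (adjusted p = 0.0059). ACAT2 was thus the one sterol gene called higher with each array alone, and HSD17B7 was called in opposite directions.

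**Figure D3:**
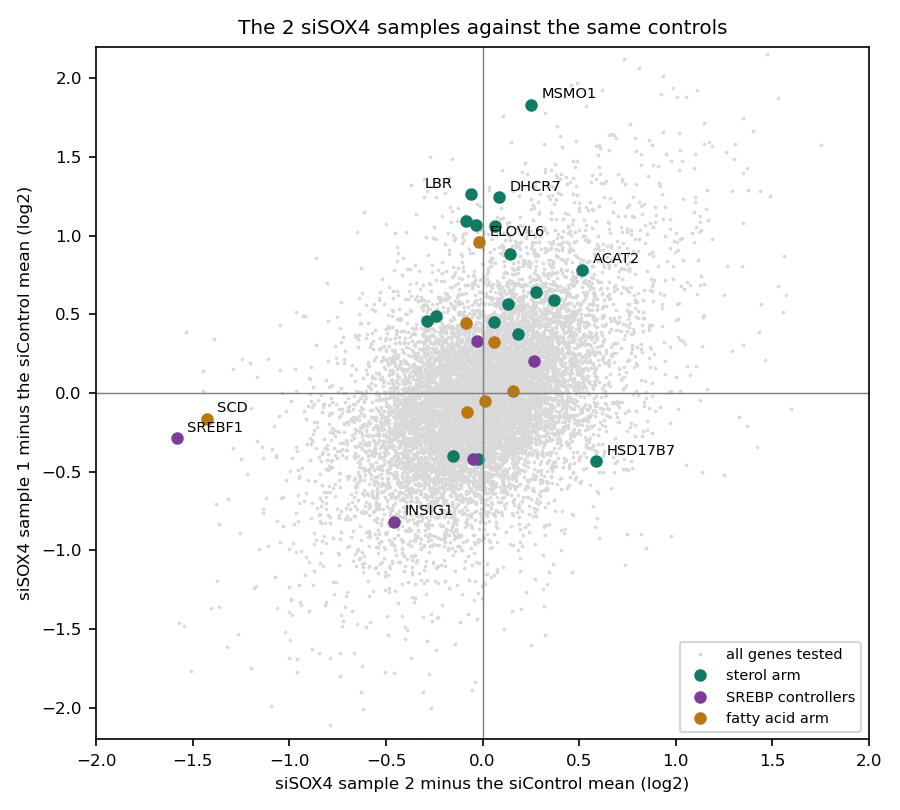
Log2 signal minus the siControl mean in siSOX4 sample 2 (x axis) and siSOX4 sample 1 (y axis) for the 30 measured members, coloured by arm, over all genes tested in grey (those beyond the axes are not drawn); both axes share the same controls. Of 18 sterol genes, 15 lie between 0.37 and 1.83 in sample 1, and the sterol median is 0.077 in sample 2, while SREBF1 and SCD lie low in sample 2 at -1.58 and -1.43.

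Among the controllers the median difference was -0.23, with 2 of 5 higher and 3 of 5 lower. INSIG1 was the member with the lowest unadjusted p of those with less signal in siSOX4 cells. Its signals were 798 and 1049 in siSOX4 samples 1 and 2, against 1287 and 1657 in siControl samples 1 and 2. Both siSOX4 arrays were below both controls, by 0.64 ± 0.20 on the log2 scale, a 1.56-fold lower mean (limma, unadjusted p = 0.0128, adjusted p = 0.270). With each siSOX4 array alone, INSIG1 was lower by 0.82 for sample 1 and by 0.46 for sample 2, with an adjusted p of 0.0217 for sample 2. INSIG1 thus had less signal in the same sample 1 in which most sterol enzymes had more.

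INSIG2, the paralog that shares the role of retaining SCAP, had normalized log2 values of 8.02 and 7.66 in siSOX4 samples, against 7.63 and 7.75 in siControl samples. Its groups overlapped, with a difference of 0.15 ± 0.21 (95% interval -0.32 to 0.62). SCAP, the escort itself, had 8.61 and 8.98 in siSOX4 samples, against 9.01 and 9.04 in siControl samples. Both SCAP values were below both controls, by 0.23 ± 0.19. The SCAP difference was -0.42 with sample 1 alone and -0.051 with sample 2 alone, so it came mostly from sample 1.

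SREBF1, the gene of SREBP-1, had the most negative difference of the 30 measured members. Its signals were 147 and 87.2 in siSOX4 samples 1 and 2, against 206 and 144 in siControl samples 1 and 2. Sample 1 lay between the controls and sample 2 below both, so the groups overlapped. The log2 difference was -0.94 ± 0.42 (adjusted p = 0.404), and without background correction it was -0.56. With sample 2 alone SREBF1 was lower by 1.58 on the log2 scale (adjusted p = 1.75e-07), and with sample 1 alone its difference of -0.29 did not pass (adjusted p = 0.400). SREBF2, the gene of SREBP-2, was detected on both siSOX4 arrays and was not well above background on the siControl arrays. Its normalized log2 values were 5.26 and 5.32 in siSOX4 samples, against 5.14 and 4.97 in siControl samples, at least 1.08-fold. The probe was kept only through the siSOX4 arrays, so the filter fixes this direction and nothing is read from it. Without SREBF2 the median of the controllers was -0.44.

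The promoters of the INSIG and SREBF pairs are shown so that the paralogs of each controller can be compared. They are the 250 bases before the first listed start in RefSeq (GRCh38), INSIG1 at chr7:155297628-155297877 and INSIG2 at chr2:118088221-118088470 on the plus strand, SREBF1 at chr17:17836987-17837236 on the minus strand and SREBF2 at chr22:41832855-41833104 on the plus strand. Capitals mark CCAAT or ATTGG, and the sterol regulatory element TCACNCCAC.
INSIG1: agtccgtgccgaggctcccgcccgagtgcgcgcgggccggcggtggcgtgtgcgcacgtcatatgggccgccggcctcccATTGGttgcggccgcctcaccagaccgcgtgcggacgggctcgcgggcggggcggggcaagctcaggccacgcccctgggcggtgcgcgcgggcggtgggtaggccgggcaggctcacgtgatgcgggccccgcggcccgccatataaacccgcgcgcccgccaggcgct
INSIG2: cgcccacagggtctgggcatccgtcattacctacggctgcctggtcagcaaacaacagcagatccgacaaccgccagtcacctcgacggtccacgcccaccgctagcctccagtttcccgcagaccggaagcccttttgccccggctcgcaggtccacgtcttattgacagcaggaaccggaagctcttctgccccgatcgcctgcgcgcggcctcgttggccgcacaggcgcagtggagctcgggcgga
SREBF1: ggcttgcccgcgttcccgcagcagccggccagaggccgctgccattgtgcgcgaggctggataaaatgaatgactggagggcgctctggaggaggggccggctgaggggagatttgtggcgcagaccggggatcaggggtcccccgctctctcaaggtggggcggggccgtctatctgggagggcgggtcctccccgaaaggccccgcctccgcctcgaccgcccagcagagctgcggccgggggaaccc
SREBF2: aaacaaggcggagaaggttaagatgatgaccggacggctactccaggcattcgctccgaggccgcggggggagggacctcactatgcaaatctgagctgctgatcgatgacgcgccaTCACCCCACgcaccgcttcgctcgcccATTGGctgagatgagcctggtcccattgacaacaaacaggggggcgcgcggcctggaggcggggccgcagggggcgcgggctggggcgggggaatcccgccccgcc
INSIG1 and SREBF2 each hold CCAAT in this window and INSIG2 and SREBF1 do not. The SREBF1 window lies before the only start listed for that gene, at its outer end. Nothing here says whether this is the SREBP-1c promoter. The sterol regulatory element of SREBF2 begins 133 bases before its start.

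The fatty acid arm had a median difference of 0.085, with 0.012 for siSOX4 sample 1 and -0.016 for sample 2. No direction was shared across the arm. ACLY, which makes cytosolic acetyl-CoA from citrate, had normalized log2 values of 10.89 and 10.96 in siSOX4 samples, against 10.93 and 10.96 in siControl samples, the smallest difference among the members at -0.021 ± 0.14 (-0.082 with the authors' processed values). ACACA, the acetyl-CoA carboxylase, had 8.31 and 8.35 in siSOX4 samples, against 8.52 and 8.34 in siControl samples, with overlap. FASN, the fatty acid synthase, had 10.57 and 10.04 in siSOX4 samples, against 10.21 and 10.03 in siControl samples. FASN was higher by 0.44 with sample 1 alone (limma, adjusted p = 0.0134), and its group difference was 0.18 ± 0.20.

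ELOVL6, which lengthens palmitate to stearate, and SCD, which desaturates the product, stand next to each other in the path and differed in opposite directions. ELOVL6 signals were 1500 and 828 in siSOX4 samples 1 and 2, against 900 and 801 in siControl samples 1 and 2. Sample 1 was above both controls and sample 2 between them, for a log2 difference of 0.47 ± 0.29. SCD signals were 1284 and 593 in siSOX4 samples 1 and 2, against 1759 and 1370 in siControl samples 1 and 2. Sample 2 was far below both controls, while sample 1 was between them after normalization, for a log2 difference of -0.80 ± 0.36 (adjusted p = 0.408). With sample 1 alone, ELOVL6 was 1.94-fold higher (adjusted p = 7.94e-08) and the SCD difference of -0.16 did not pass (adjusted p = 0.467). With sample 2 alone, SCD was 2.69-fold lower (adjusted p = 2.11e-13) and ELOVL6 differed by -0.016. The opposite group differences of ELOVL6 and SCD thus came from different samples.

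FADS1 and FADS2, the desaturases of polyunsaturated fatty acids, lie on chromosome 11 in opposite orientations, and their listed spans overlap. FADS1 had 9.42 and 9.56 in siSOX4 samples, against 9.40 and 9.41 in siControl samples. FADS2 had 6.42 and 6.16 in siSOX4 samples, against 6.16 and 6.04 in siControl samples. The FADS1 groups did not overlap and the FADS2 groups did by a small margin, with differences of 0.085 ± 0.16 and 0.19 ± 0.21, which were 0.042 and 0.091 with the authors' processed values. The promoters of SCD, the fatty acid gene of largest difference, and of this pair are shown for comparison with those of the sterol genes. They are the 250 bases before the first listed start in RefSeq (GRCh38), SCD at chr10:100346983-100347232 and FADS2 at chr11:61815953-61816202 on the plus strand and FADS1 at chr11:61817004-61817253 on the minus strand, with CCAAT or ATTGG in capitals.
SCD: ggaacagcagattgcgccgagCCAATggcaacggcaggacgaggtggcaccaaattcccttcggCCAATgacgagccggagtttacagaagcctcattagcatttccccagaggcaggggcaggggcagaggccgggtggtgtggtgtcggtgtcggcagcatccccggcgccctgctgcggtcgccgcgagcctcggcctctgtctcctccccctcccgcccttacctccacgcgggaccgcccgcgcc
FADS1: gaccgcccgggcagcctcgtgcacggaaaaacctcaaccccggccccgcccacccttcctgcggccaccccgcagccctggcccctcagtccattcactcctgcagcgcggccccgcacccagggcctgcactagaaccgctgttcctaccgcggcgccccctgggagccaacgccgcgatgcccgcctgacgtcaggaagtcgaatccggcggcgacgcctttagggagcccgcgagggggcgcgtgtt
FADS2: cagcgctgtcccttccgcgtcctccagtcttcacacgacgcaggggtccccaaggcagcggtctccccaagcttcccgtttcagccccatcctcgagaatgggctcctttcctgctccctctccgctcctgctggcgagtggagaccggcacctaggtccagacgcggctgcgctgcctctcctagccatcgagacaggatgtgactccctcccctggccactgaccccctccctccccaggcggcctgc
The SCD window holds 2 CCAAT boxes. The FADS2 window, before the first of 2 listed starts, lies within the listed span of FADS1.

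Set against each other, the sterol arm's median difference exceeded that of the fatty acid arm by 0.38 (siSOX4 minus siControl). The excess was 0.60 and 0.093 in siSOX4 samples 1 and 2, against -0.11 and 0.11 in siControl samples 1 and 2. The value of sample 2 thus lay within the range of the siControl samples and that of sample 1 did not. With 2 arrays against 2, an exact permutation test cannot give a p below 0.333, and no test of this difference was made. Each siSOX4 sample was also placed against both controls gene by gene. Sample 1 was above both controls for 15 of 18 sterol genes, 2 of 5 controllers and 4 of 7 fatty acid genes, against 38.4% of all genes. Sample 2 was above both for 9 of 18 sterol genes, 1 of 5 controllers and 1 of 7 fatty acid genes, against 39.3%. Sample 1 was below both for 3 of 18 sterol genes, 2 of 5 controllers and 2 of 7 fatty acid genes, against 44.2% of all genes. Sample 2 was below both for 5 of 18 sterol genes, 3 of 5 controllers and 1 of 7 fatty acid genes, against 39.8%.

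**Figure D4:**
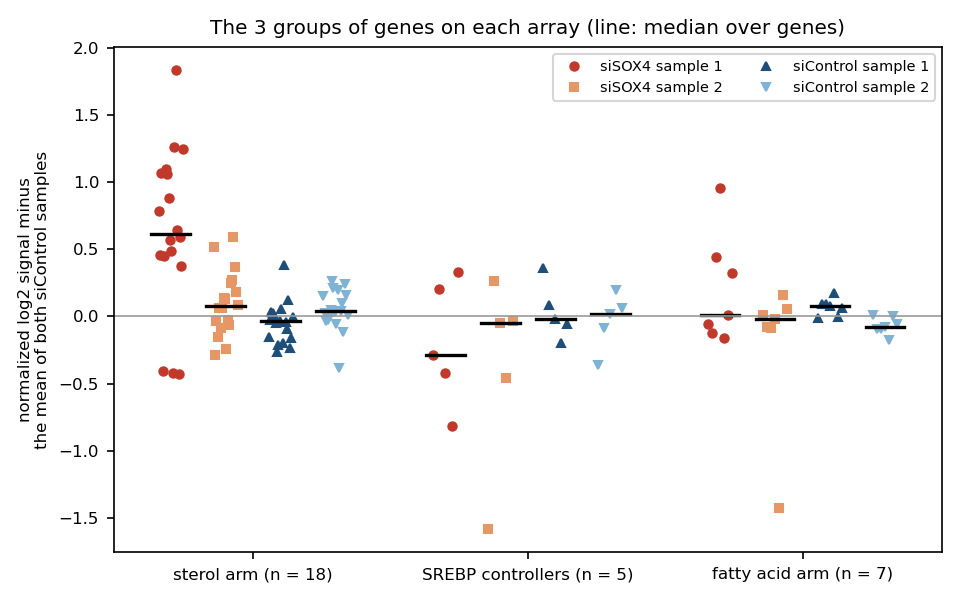
Normalized log2 signal minus the siControl mean (y axis) of each gene of the sterol arm, the SREBP controllers and the fatty acid arm on each of the 4 arrays, siSOX4 samples left of siControl samples, with a line at the median over genes. The sterol median is 0.62 in siSOX4 sample 1 and 0.077 in sample 2, while the fatty acid medians are 0.012 and -0.016.

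Several members were read by more than 1 probe. Of 11 members with several kept probes, 7 had several that were detected on every array, and of these 6 had 1 sign and ACLY had both. The further probes of INSIG1 and LSS were detected in 1 group only, so the filter fixes their direction. The probe pairs of DHCR7 (0.67 and 0.65), SQLE (0.51 and 0.51) and ELOVL6 (0.47 and 0.52) had log2 differences close to each other. MSMO1 had probes at 1.04, 0.81 and 0.036, SREBF1 at -0.94 and -0.46, and LBR at 0.60 and -0.12. The values of MSMO1, SREBF1 and LBR thus depend on the probe. The MSMO1 probes stood 1.83, 2.11 and 0.46 above the siControl mean in siSOX4 sample 1, and differed from it by 0.25, -0.50 and -0.39 in siSOX4 sample 2. All 3 were thus high in sample 1, and the sign in sample 2 depended on the probe.

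**Figure D5:**
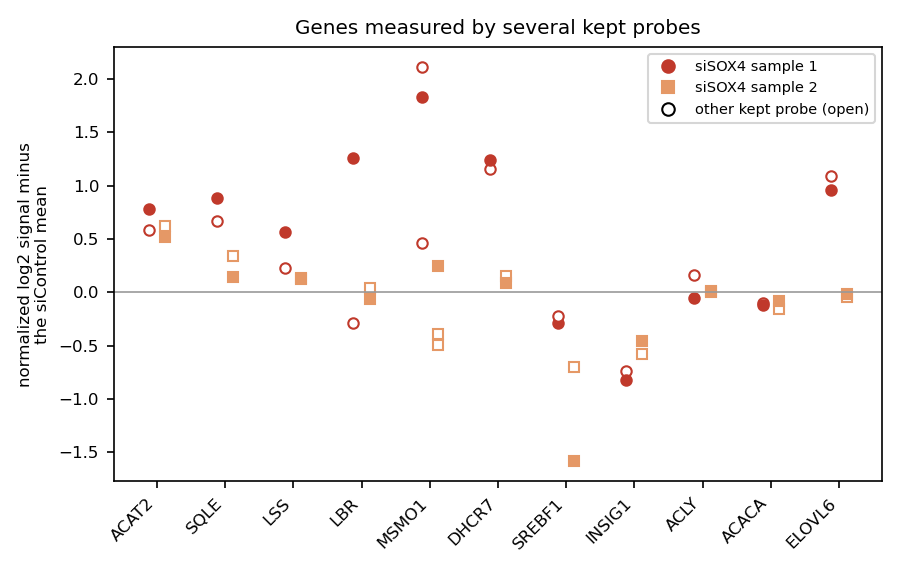
Normalized log2 signal minus the siControl mean (y axis) in siSOX4 samples 1 and 2 for each kept probe of the 11 members with several; filled marks are the probe used for the gene and open marks the other kept probes. The MSMO1 probes lie at 1.83, 2.11 and 0.46 in sample 1 and at 0.25, -0.50 and -0.39 in sample 2.

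Genes around these paths were read as lists, and 0 of their members passed an adjusted p of 0.05 in limma. Among other sterol synthesis and uptake genes, 3 of 9 were measured, with 1 higher, 2 lower, 0 at an unadjusted p under 0.05 and a median log2 difference of -0.044. Of other genes of SREBP processing and reductase degradation, 9 of 12 were measured, with 6 higher and 3 lower. At an unadjusted p under 0.05, 1 of the 9 was higher, against 7.44% of all genes, and 0 were lower, against 7.39%. PAQR3, which tethers SCAP and SREBP to the Golgi, had 8.40 and 8.59 in siSOX4 samples, against 7.66 and 7.83 in siControl samples. Its groups did not overlap and it differed by 0.75 ± 0.19 (limma, adjusted p = 0.192). Other fatty acid synthesis genes had 14 of 22 measured, 7 higher and 7 lower, with a median of -0.0058. Of the 7 higher, 1 was kept only through the siSOX4 arrays, so the filter fixes its direction. Of the 14, 1 was lower at an unadjusted p under 0.05, against 7.39% of all genes, and 0 were higher, against 7.44%. MID1IP1, an activator of acetyl-CoA carboxylase, had 6.86 and 6.94 in siSOX4 samples, against 7.74 and 7.57 in siControl samples, a difference of -0.76 ± 0.19 (limma, adjusted p = 0.200). ME1, the malic enzyme that supplies NADPH, differed by -0.50 ± 0.25, also without overlap.

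The users of isoprenoids, which branch off at farnesyl pyrophosphate, had 12 of 12 measured, 6 higher and 6 lower. At an unadjusted p under 0.05, 1 was higher, against 7.44% of all genes, and 1 was lower, against 7.39%. ICMT, the methyltransferase of prenylated proteins, had 10.33 and 9.51 in siSOX4 samples, against 8.24 and 8.66 in siControl samples, with no overlap and a difference of 1.47 ± 0.28 (limma, adjusted p = 0.138). FNTA, the alpha subunit of farnesyltransferase, differed by -0.52 ± 0.20. The LXR targets, a list that shares SREBF1, SCD and FASN with the members, had 8 of 9 measured, 2 higher and 6 lower, with a median of -0.63. At an unadjusted p under 0.05, 3 of the 8 were lower, against 7.39% of all genes, and 0 were higher, against 7.44%. Their medians were -0.23 and -0.76 in siSOX4 samples 1 and 2, against 0.079 and -0.079 in siControl samples 1 and 2. ABCA1, the cholesterol exporter, had 7.28 and 7.50 in siSOX4 samples, against 9.37 and 9.86 in siControl samples, and differed by -2.22 ± 0.22 (limma, adjusted p = 0.0675). MYLIP, the ligase that marks lipoprotein receptors for degradation, differed by -0.70 ± 0.23. Both siSOX4 samples were below both controls for ABCA1 and MYLIP, whereas for SREBF1 and SCD sample 2 alone was.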

How the data were processed

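Total RNA was measured on 4 single-colour Illumina expression BeadChips, 2 siSOX4 and 2 siControl, per the labels. The deposited signal table gives, per the file headers, an intensity per probe and unnamed columns that match detection p-values of each array. These deposited p-value columns fall with the signal of their own array only. The deposited series matrix holds ratios of signals to the median of their array. The authors' deposited fold ratio is the siControl mean over the siSOX4 mean, per the file headers. Of the ratios of members with a named probe, 47 of 47 matched this within a relative tolerance of 1e-06. The FDFT1 ratios were not compared, as that gene had no named probe. No source used here names the scanner software.

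Intensities were background-corrected, quantile-normalized and log2-transformed with limma 3.58.1 (neqc, offset 16) under R 4.3.3. Kept were the probes whose detection p was under 0.05 on at least 2 arrays, 20118 in all. Of 47323 probes, 30113 had 1 gene symbol in the platform annotation, 8 several and 17202 none. A gene was read by its kept probe of highest mean. Groups were compared with lmFit and eBayes (trend), as two-sided tests adjusted by Benjamini-Hochberg over the kept probes. Errors after ± are standard errors, n = 2 a group. The fit was tested on simulated data in which a probe had the same spread on all arrays. In the real data, the log2 difference between the arrays of a group had an SD over kept probes of 0.43 for siSOX4 and 0.26 for siControl. The simulation thus did not cover this unequal spread or the fits of a lone siSOX4 array. A probe undetected on every array of a group has a bound only: the bright group's mean against the higher, per dim array, of the probe's own value and the lowest detected one. Promoters came from RefSeq (GRCh38). Figures were drawn with matplotlib 3.10.9.

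Members and lists were chosen with earlier results of these data known. Genes named are the 32 members, SOX4, and in each other pathway list at most the 2 genes of largest difference whose groups do not overlap. Markers named singly were chosen after their values were seen. Alternatives covered background, scaling, detection filter, probe choice, variance trend, a replicate block and leaving out each array.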

Additional observations from a re-analysis of the deposited data

How the results depend on the processing

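The sterol arm had 16 of 18 genes higher under every alternative that used all 4 arrays, and its median exceeded that of the fatty acid arm by 0.28 to 0.38 there. Over 13 alternatives, 389 member values were computed, of which 356 stayed on the same side of 0 and of the threshold, 21 passed the threshold only when an array was left out, and 12 changed sign. Of the 30 members, 20 never changed sign, and with all arrays used only ACLY did, at 0.033 with the mean of probes. Leaving out each array in turn gave 0 to 17 members past adjusted p (0 to 24.7% of all genes), 0 to 17 higher (1.87 to 16.3%) and 1 to 4 lower (1.68 to 19.6%) at an unadjusted p under 0.05, and 11 to 21 members above (31.0 to 39.3%) and 5 to 9 below (34.6 to 44.2%) the other group without overlap. It gave medians of 0.077 to 0.62 for the sterol arm, -0.29 to -0.051 for the controllers and -0.016 to 0.087 for the fatty acid arm, and a sterol excess over the fatty acid arm of 0.093 to 0.60. The members whose sign changed then ranged from -0.054 to 0.012 for ACLY, -0.24 to 0.49 for CYP51A1, -0.016 to 0.96 for ELOVL6, -0.086 to 0.44 for FASN and -0.29 to 0.46 for HMGCS1. HSD17B7 ranged from -0.43 to 0.59, IDI1 from -0.085 to 1.10, INSIG2 from -0.031 to 0.33, LBR from -0.061 to 1.26 and MVK from -0.033 to 1.07.

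The lower count at an unadjusted p under 0.05, 1 as reported, was 2 with median scaling (8.21% of all genes), 3 with the authors' processed values (7.10%) and 3 with no filter (5.51%). The higher count, 3 as reported, was 1 with probes detected on all 4 arrays (7.54%), 1 with no variance trend (7.24%) and 5 with no filter (5.56%). Members below the other group without overlap numbered 6 with median scaling (27.0% of all genes) and 5 with the mean of probes (24.8%). The fatty acid median was 0.057 with median scaling and 0.042 with the authors' values, and the controllers' median was -0.44 with probes detected on all 4 arrays, where SREBF2 drops out. Over all genes, 3 passed with median scaling, 1 with the authors' values and 77 with no filter. The cause was not tested for the other shifts.

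With the replicate number as a block, 0 members and 133 genes passed adjusted p, and 5 of 30 members were higher (8.12% of all genes) and 3 lower (7.98%) at an unadjusted p under 0.05. The labels do not say that a number is shared, and the deviations of same-numbered arrays correlated at 0.11 over only 2 pairs, so the block was not used. SOX4 ranged from -0.44 to -0.26 over all alternatives.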
